A study of Mus musculus with 6 samples.

Results

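Cathepsins are the proteases of the lysosome, the acidic compartment in which cells break down proteins. The genes described here are the 10 rows of the expression table whose symbol is Ctsa, Ctsb, Ctsc, Ctsd, Ctsf, Ctsh, Ctsk, Ctsl, Ctss or Ctsz, out of 57180 gene rows, and all 10 have a row. Their RNA was measured by poly(A)-selected, stranded sequencing in GC-1 spg cells, an immortalised mouse line derived from type B spermatogonia, grown in DMEM with fetal bovine serum. Per the labels, 3 libraries carry the genotype SNHG1 Overexpression and 3 the genotype Vector Control, all taken 24 hours after transfection, and all 6 samples carry the treatment label non-obstructive azoospermia. The sources used here give neither the promoter of the construct nor the sequence it carried. Separate cultures are not stated for the replicates, so p-values cover only the spread among these libraries. The series title places SNHG1 in IL-17A signalling.

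Most cathepsins, among them those encoded by Ctsb, Ctsc, Ctsf, Ctsh, Ctsk, Ctsl, Ctss and Ctsz, are cysteine proteases of the papain family, whereas cathepsin D is an aspartic protease and cathepsin A a serine carboxypeptidase. They are made as inactive precursors, tagged with mannose 6-phosphate, carried to the lysosome by the mannose 6-phosphate receptors and activated there by removal of the propeptide. Cystatins bind and block the cysteine members. In the testis, cathepsin L is known as a secreted product of Sertoli cells whose level follows the cycle of the seminiferous epithelium.

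Total counts ran from 15521900 to 21095427 per library, and values are given as CPM, the count scaled to library size. The limit set by a count of 0, taken as 3 counts, lay between 0.142 and 0.193 CPM (counting error only). Labelled replicate 1 stood apart: its chi-square per degree of freedom against the other replicates of its group was 16.1 and 16.7, the highest of the 6 replicate pairs. Snhg1 itself checks the labels and stood at 25.2 ± 1.19 CPM (SD, n = 3) under the overexpression label and 23.0 ± 2.63 CPM under the vector label, with overlapping groups. Libraries with the overexpression label are therefore called the labelled libraries, and each direction is that of the labels. The germ cell label found little in the markers. Of 18 spermatogonia markers, 9, among them Ddx4, Kit, Zbtb16 and Sall4, had 0 counts in all 6 libraries. The list summed to 2.39 to 3.55 CPM in the labelled and 2.07 to 2.50 CPM in the vector libraries. Most of that sum was Gfra1, at a mean of 2.42 CPM in the labelled and 1.92 CPM in the vector libraries. The 11 peritubular and fibroblast markers were mixed. Among them the collagen gene Col1a2 stood at 13081 to 16512 CPM over the 6 libraries. Lum had 0 counts, and Dcn, Tagln, Myh11 and Cnn1 had 20, 18, 17 and 21 counts in total.

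Short promoter stretches are shown for the members that hold an E-box or an interferon-stimulated response element. TFEB and TFE3, the transcription factors that raise lysosome genes, bind an E-box (CACGTG). Interferon regulatory factors bind the interferon-stimulated response element (ISRE), whose letters stand in capitals in the Ctss sequence. Both were searched on both strands in the 250 bases before the start site, in RefSeq sequences of GRCm38.p6, where 8 of the 10 members had an entry. Capitals mark the motif and sequences read 5′ to 3′ on the strand of the gene.
Ctsl E-box, minus strand, chr13:64370741-64370766: cgttagaagcCACGTGctgatctaaa
Ctsd E-box, minus strand, chr7:142388057-142388077: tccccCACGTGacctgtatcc
Ctsd second E-box, minus strand, chr7:142387910-142387935: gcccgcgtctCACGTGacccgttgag
Ctsa E-box, plus strand, chr2:164833751-164833772: agcaaactgtCACGTGatgcag
Ctsf E-box, plus strand, chr19:4855076-4855101: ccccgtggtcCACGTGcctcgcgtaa
Ctss ISRE, plus strand, chr3:95526755-95526784: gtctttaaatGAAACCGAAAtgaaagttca

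An E-box was thus present in 4 of 8 members, against 6.02% of the 32851 promoter entries in the table, and an ISRE in 1 of 8, Ctss, against 2.98% of the entries. These shares were not adjusted for base composition. The GC box (GGGCGG) was in 5 of 8 members (32.7% of entries), the CCAAT box in 2 (33.8%) and the TATA box in 1 (12.4%). The E-box lay 236 bases before the start site in Ctsl, 245 and 98 in Ctsd, 12 in Ctsa and 79 in Ctsf, and the ISRE 21 bases before it in Ctss. The CLEAR box, the longer lysosomal motif of TFEB that contains the E-box, was searched as a fixed string of letters. An exact match was in 0 of 8 members (0.24% of entries). The E-boxes shown thus differ from that string in their flanking letters. Looser forms of the CLEAR box were not searched, so whether these E-boxes lie in such a form was not tested. The NF-kappaB motif was in 0 of 8 members (7.25% of entries). The interferon-activated GAS motif (STAT binding) was in 1 of 8, Ctsc, 236 bases before its start (7.02% of entries). Members were counted once, although Ctsa has 2 entries, whereas the percentages are per entry. A match describes letters only. Several windows are doubtful promoters by the GENCODE M21 annotation. The RefSeq start of Ctsl lay 214 bases from the nearest M21 transcript start, another M21 transcript began 370 bases upstream, and 48 of the 250 bases were exonic. The Ctsd window held 211 such bases and that of Ctsf 35. The Ctsa site comes from the second of 2 start sites of that gene, whose window held 164 exonic bases, with another transcript starting 900 bases upstream.

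Of the 10 genes, 5 were abundant and 5 were nearly silent in these cells. Per kilobase of annotated exon length, the vector libraries held 357 ± 8.16 CPM for Ctsd, 304 ± 9.67 for Ctsb, 177 ± 6.91 for Ctsz, 90.9 ± 2.92 for Ctsl and 42.1 ± 1.96 for Ctsa (level per length, SD, n = 3). On the same per-length scale Ctss stood at 0.701 ± 0.190 and Ctsk at 0.492 ± 0.194, and Ctsc at 0.0327 ± 0.0213, with Ctsh and Ctsf lower still. Neighbours in the order from Ctsd to Ctss did not overlap between vector libraries, whereas Ctss and Ctsk did. The order of Ctsd and Ctsb depends on the length used. With the length implied by the deposited FPKM, Ctsb stood at 290 ± 9.22 and Ctsd at 233 ± 5.32 (level per length, SD, n = 3), and with the principal transcript length their vector libraries overlapped. Exon lengths were 2351 bases for Ctsd and 6051 for Ctsb, and the implied ones 3606 and 6347.

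**Figure D1:**
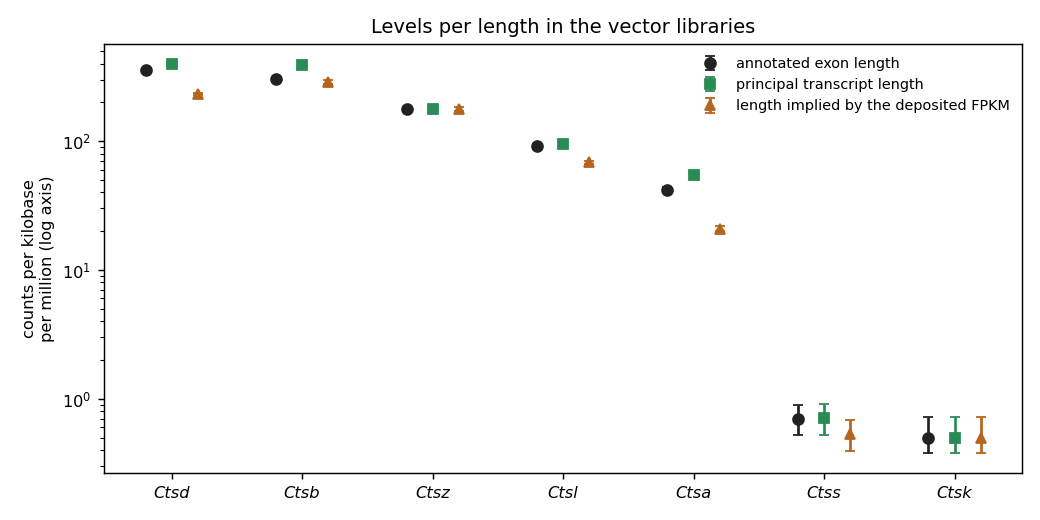
Level of 7 cathepsin genes in the vector libraries, in CPM per kilobase on a log axis, by 3 choices of gene length. Points are means and bars span the 3 libraries. Ctsd, Ctsb, Ctsz, Ctsl and Ctsa lie at 20.8 or above, and Ctss and Ctsk at 0.703 or below, with every length.

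By counts alone Ctsb was the 24th most abundant gene of the vector libraries by mean CPM, Ctsd the 101st and Ctsl the 178th. The 10 genes together took 0.360 to 0.382% of the counts of the vector libraries and 0.391 to 0.450% of those of the labelled libraries. Ctsb alone made up 49.3 to 49.5% of the cathepsin counts in the vector libraries and 44.8 to 49.0% in the labelled ones. The share of Ctsl went from 15.7 to 16.0% in the vector libraries to 20.7 to 22.0% in the labelled ones. These shares describe counts, in which longer transcripts weigh more.

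Ctsl, encoding cathepsin L, an endopeptidase of broad specificity, was the member that rose in the labelled libraries. Its row (ENSMUSG00000021477) is a protein-coding gene on chromosome 13, from 64507151 to 64518704 in the coordinates of the deposited table, whose build is unnamed. The RefSeq start site of Ctsl in GRCm38.p6, 64370520, lies outside that span. Positions from the deposited table are therefore not comparable with the promoter positions above. Of the 50-base windows of its principal transcript, 6.9% also occur in transcripts of other genes. The labelled libraries held 18145, 18116 and 16631 counts and the vector libraries 11980, 9325 and 11086. Scaled to library size these were 932, 861 and 863 CPM against 571, 602 and 602 CPM. All 3 labelled libraries lay above all 3 vector libraries. Ctsl rose by 49.7% (95% interval 37.3 to 63.2%), or 0.58 ± 0.05 as log2 fold change (SE), at an adjusted p of 0.00156 by edgeR (n = 3 per group). Of 7 members tested, 1 rose and 0 fell, where 2.4% of the 14605 tested genes were called changed, 1.54% higher and 0.856% lower. DESeq2 also called 1 member, against 5.45% of the genes it adjusted. Ctsl was called in each of 15 alternative fits, including each library left out, with a log2 fold change of 0.54 to 0.66 and adjusted p of 5.39e-17 to 0.0157. By size it was the 113th of the 225 genes called higher, in the middle of that list.

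**Figure D2:**
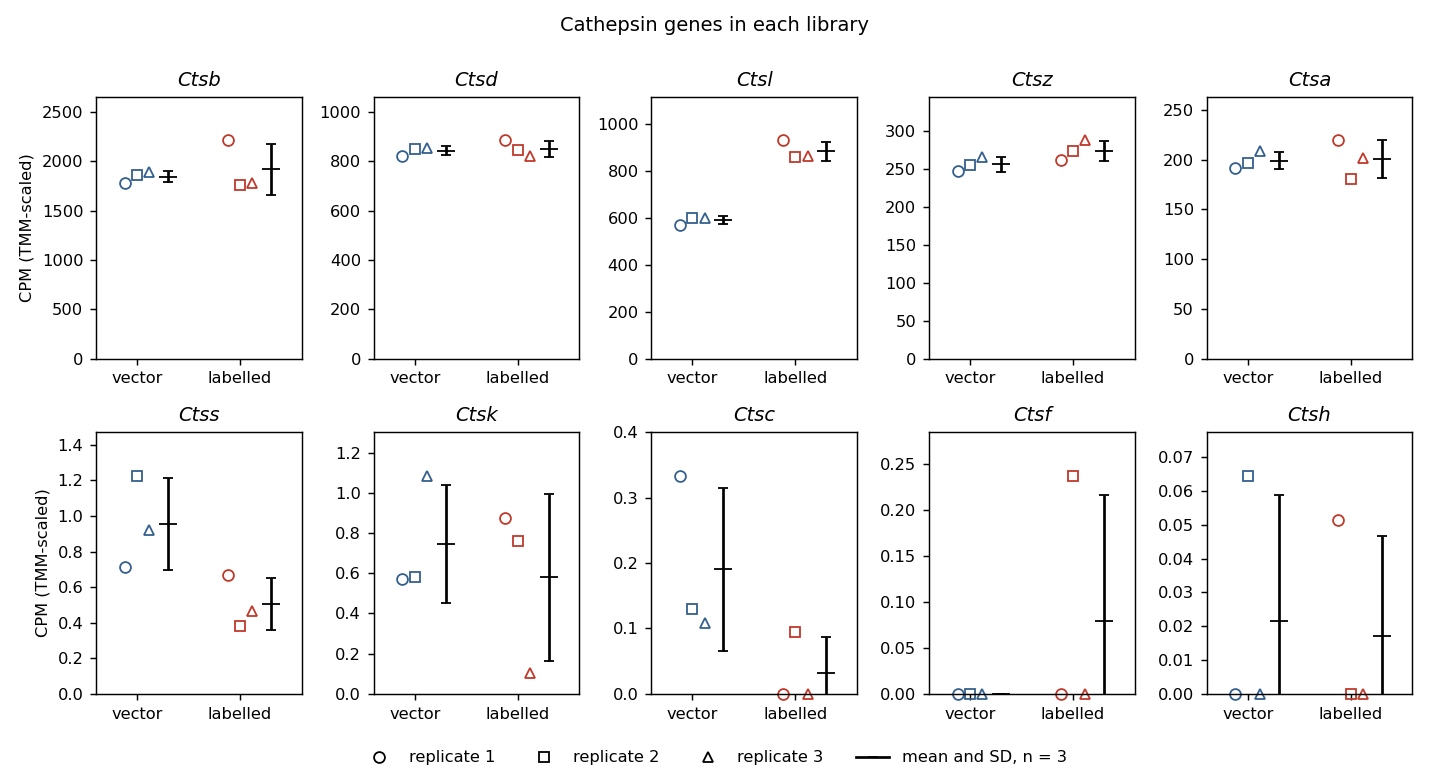
CPM of the 10 cathepsin genes in each library, with a linear axis from 0 in every panel. Symbols mark the replicate number, and the horizontal mark and bar give the mean and SD of 3 libraries, cut at 0. Ctsl is at 571 to 602 CPM in the vector libraries and 861 to 932 CPM in the labelled ones.

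Ctsb encodes cathepsin B, a cysteine protease that also trims the C-terminal ends of proteins. It lies on chromosome 14 (63359911 to 63383372 in the deposited table) and stood at 2212, 1755 and 1781 CPM in the labelled and 1782, 1859 and 1890 CPM in the vector libraries. The groups overlapped, and labelled replicate 1 was the highest of the 6 libraries. Its log2 fold change of 0.06 ± 0.09 (SE) did not pass edgeR (adjusted p = 0.782, n = 3 per group), and the 95% interval ran from -9.85 to 19.8%. Without that library it was -0.06 ± 0.04 (edgeR, adjusted p = 0.404).

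Ctsd encodes cathepsin D, the main aspartic protease of lysosomes, on chromosome 7 (141929648 to 141941775 in the deposited table). It stood at 885, 845 and 819 CPM in the labelled and 822, 851 and 853 CPM in the vector libraries, which overlapped. Its log2 fold change of 0.01 ± 0.05 (SE) did not pass edgeR (adjusted p = 0.915, n = 3 per group), and the 95% interval ran from -6.83 to 9.33%. Of the 50-base windows of its principal transcript, 36.6% also occur in Gm49369, an overlapping gene model listed at 25 to 46 counts per library. The sources used here do not say how reads were divided between them.

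Ctsz encodes cathepsin Z, a carboxypeptidase, on chromosome 2 (174269286 to 174280832 in the deposited table). It stood at 261, 273 and 288 CPM in the labelled and 247, 255 and 266 CPM in the vector libraries. The groups overlapped, with a log2 fold change of 0.10 ± 0.06 (SE) and a 95% interval of -2.55 to 17.6% (edgeR, adjusted p = 0.432, n = 3 per group). With GC and length trends removed it was 0.00058 ± 0.042. Ctsa encodes cathepsin A, which holds beta-galactosidase and neuraminidase in a stable complex besides its own activity, and lies on the same chromosome (164674793 to 164682952). Its values were 219, 181 and 201 CPM in the labelled and 191, 197 and 209 CPM in the vector libraries. They overlapped throughout, with a log2 fold change of 0.01 ± 0.08 (SE) and a 95% interval of -11.2 to 14.3% (edgeR, adjusted p = 0.959). For Ctsb, Ctsd, Ctsz and Ctsa together, the upper bounds of the 95% intervals reached at most 19.8%, below the lower bound of 37.3% for Ctsl.

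**Figure D3:**
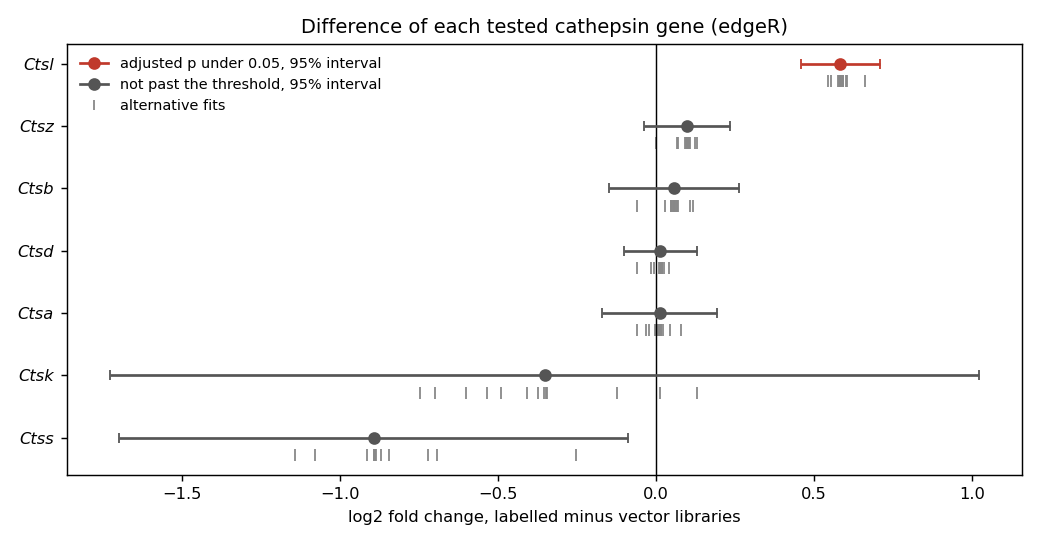
Log2 fold change of the 7 tested cathepsin genes, labelled minus vector libraries, with 95% intervals from edgeR. Grey ticks are the alternative fits. Ctsl lies at 0.58, whereas the points of Ctsz, Ctsb, Ctsd and Ctsa lie between 0.01 and 0.10, and Ctsk and Ctss have wide intervals.

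Counts of 2 genes within a library give a ratio that does not depend on how libraries are scaled. Ctsl over Ctsd was 1.05, 1.02 and 1.05 in the labelled libraries and 0.695, 0.707 and 0.705 in the vector libraries. In counts, Ctsl thus passed from below Ctsd in each vector library to just above it in each labelled one. Ctsl over Ctsb was 0.421, 0.490 and 0.485 against 0.320, 0.324 and 0.318. The mean of Ctsl over Ctsa was 4.43 ± 0.285 against 2.97 ± 0.0881, and that of Ctsl over Ctsz 3.24 ± 0.293 against 2.31 ± 0.0481 (SD, n = 3). Groups did not overlap in any of these 4 ratios. An exact two-sided permutation test gave p = 0.1 for each, the smallest that 3 against 3 libraries allow, and 0.175 after Benjamini-Hochberg adjustment over the 7 ratios computed. These 4 ratios share the Ctsl counts from which Ctsl was already called, so they are not a separate test of its rise. The other 3 ratios overlapped: Ctsb over Ctsd was 2.25 ± 0.222 against 2.19 ± 0.0229, Ctsz over Ctsd 0.323 ± 0.0278 against 0.304 ± 0.00662, and Ctsa over Ctsd 0.236 ± 0.0191 against 0.236 ± 0.00731 (SD, n = 3).

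**Figure D4:**
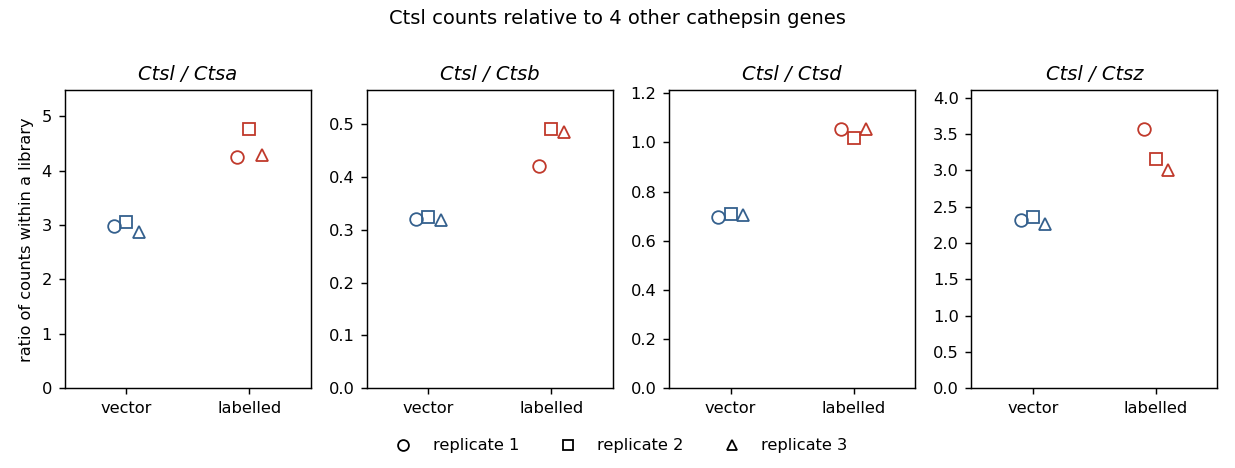
Ratio of Ctsl counts to those of Ctsa, Ctsb, Ctsd and Ctsz within each library, on linear axes from 0. Symbols mark the replicate number. Each panel shows the 3 labelled libraries above the 3 vector libraries, as for Ctsl over Ctsd at 1.02 to 1.05 against 0.695 to 0.707.

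Ctss and Ctsk, the members best known from immune cells and from osteoclasts, were at the edge of detection. Both lie on chromosome 3, Ctsk at 95406567 to 95416673 and Ctss at 95434097 to 95463714 in the deposited table, 17.4 kb apart. Cathepsin S trims the invariant chain of MHC class II molecules. Ctss had 13, 8 and 9 counts in the labelled and 15, 19 and 17 in the vector libraries, or 0.668, 0.380 and 0.467 against 0.715, 1.23 and 0.923 CPM. The groups did not overlap, but labelled replicate 1 and vector replicate 1 nearly met. Its log2 fold change was -0.89 ± 0.35 (SE; 95% interval -1.70 to -0.09), at an unadjusted p of 0.0337 and an adjusted p of 0.249 by edgeR, so Ctss did not pass (n = 3 per group). It entered the test through the vector group, where 3 libraries exceeded the filter of 0.517 CPM against 1 labelled library. Non-overlapping groups were found for 2 of the 7 tested members, Ctsl and Ctss, against 23.7% of all tested genes.

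Cathepsin K is the collagen-degrading protease of bone resorption. Ctsk had 17, 16 and 2 counts in the labelled and 12, 9 and 20 in the vector libraries, with overlapping groups. Labelled replicate 3 was the lowest. The log2 fold change was -0.35 ± 0.60 (SE; edgeR, adjusted p = 0.792, n = 3 per group), and it was 0.13 ± 0.40 without labelled replicate 3 and 0.01 ± 0.70 without vector replicate 3. The 95% interval, -69.8 to 103%, leaves changes of that size undetectable at this depth.

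The remaining members, Ctsc, Ctsf and Ctsh, did not pass the filter on low counts and were not tested. Ctsc encodes cathepsin C, which activates the serine proteases of leukocyte granules. It had 0, 2 and 0 counts in the labelled and 7, 2 and 2 in the vector libraries. Ctsf had 5 counts in labelled replicate 2 and 0 elsewhere, and Ctsh, an aminopeptidase gene, 1 count in labelled replicate 1 and 1 in vector replicate 2. A difference between groups was not detectable at this depth for these genes. In the deposited table Ctsc lies on chromosome 7 (87927293 to 87960096), Ctsf on chromosome 19 (4905158 to 4910946) and Ctsh on chromosome 9 (89936205 to 89958142).

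The other genes of the mouse cathepsin family were mostly silent. Of 17 listed genes, including cathepsin-like inhibitors and relatives, 11 had 0 counts in all libraries, among them the placental cathepsin genes Ctsj, Ctsm, Ctsq and Ctsr and the granule protease gene Ctsg. Of 4 tested, 0 passed edgeR, 1 had an unadjusted p under 0.05 and 0 passed DESeq2. Over all tested genes 17% had an unadjusted p under 0.05, the share beside which such counts are to be read here and in the lists that follow. Ctso, encoding cathepsin O, was the tested cathepsin gene among them, with 71.1 ± 6.79 CPM against 75.4 ± 1.07 CPM in the labelled and vector groups (SD, n = 3). Its log2 fold change was -0.08 ± 0.08 (SE; edgeR, adjusted p = 0.605).

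Cysteine protease inhibitors did not pass either. Of 22 listed genes 5 were tested and 0 called by edgeR or DESeq2, with 2 at an unadjusted p under 0.05. Cst3, encoding the secreted inhibitor cystatin C, stood at 385, 361 and 406 CPM in the labelled and 382, 455 and 456 CPM in the vector libraries. These overlapped, with a log2 fold change of -0.17 ± 0.08 (SE; edgeR, adjusted p = 0.341, n = 3 per group). Cstb, encoding the intracellular inhibitor cystatin B, stood at 60.9, 63.5 and 61.5 CPM against 45.6, 56.7 and 54.3 CPM. Its groups did not overlap, but at 0.25 ± 0.09 (log2, SE) it missed the threshold (edgeR, adjusted p = 0.201).

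Among genes of cathepsin maturation and sorting, 1 of 18 tested fell and 0 rose, with 2 at an unadjusted p under 0.05. The gene that fell was Igf2r, the large receptor that carries mannose 6-phosphate tagged hydrolases and also clears insulin-like growth factor 2. It stood at 1220, 1182 and 1184 CPM in the labelled and 1473, 1402 and 1421 CPM in the vector libraries, which did not overlap. The log2 fold change was -0.26 ± 0.05 (SE; edgeR, adjusted p = 0.0257, n = 3 per group). The call held in 7 of 15 alternative fits and was lost without labelled replicate 2 or 3 (adjusted p = 0.125 and 0.110) and without vector replicate 1, 2 or 3 (0.106, 0.0752 and 0.107, all edgeR). Lgmn, encoding the protease legumain that processes cathepsin precursors, stood at 61.9 ± 0.263 against 57.5 ± 1.09 CPM (SD, n = 3). Its groups did not overlap, but its log2 fold change of 0.11 ± 0.05 (SE) did not pass (edgeR, adjusted p = 0.358).

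In the other lysosome lists 1 of the tested genes was called, Sgsh. None of 13 lysosomal biogenesis regulators passed edgeR or DESeq2, with 3 at an unadjusted p under 0.05, and Tfeb was at 13.9 ± 2.40 CPM against 14.7 ± 0.677 CPM (SD, n = 3; edgeR, adjusted p = 0.796). Tfe3 had a log2 fold change of 0.23 ± 0.07 (SE), at an unadjusted p of 0.0095 and an adjusted p of 0.144 by edgeR. None of 15 lysosomal membrane protein genes passed either test, with 4 at an unadjusted p under 0.05. Among them Lamp1, a main glycoprotein of the lysosomal membrane, was at 783 ± 20.9 against 802 ± 13.7 CPM (SD, n = 3; edgeR, adjusted p = 0.745). The 17 tested vacuolar ATPase subunits had 0 calls by edgeR, 3 at an unadjusted p under 0.05 and 1 by DESeq2. The 4 tested genes of MHC class II antigen processing had 0 calls by edgeR or DESeq2 and 0 at an unadjusted p under 0.05. Of 36 tested hydrolases, 1 passed edgeR, 1 passed DESeq2 and 8 had an unadjusted p under 0.05. The gene called was Sgsh, a heparan sulfate-degrading sulfamidase. Sgsh fell from 61.6, 51.4 and 64.4 CPM in the vector libraries to 22.5, 13.4 and 29.2 CPM in the labelled ones. Its log2 fold change was -1.45 ± 0.24 (SE; edgeR, adjusted p = 0.0224), and the call was lost without vector replicate 1, 2 or 3 (edgeR, adjusted p = 0.095, 0.0633 and 0.0896).

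Over the 8 lists, 112 genes were tested, 0 rose and 2 fell, or 1.79% against the 2.4% of all tested genes. An unadjusted p under 0.05 was found for 23 of the 112, where the share over all tested genes was 17%. Their median log2 fold change was -0.04, where that of all tested genes was 0.01 and that of the 7 tested cathepsin genes 0.01.

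**Figure D5:**
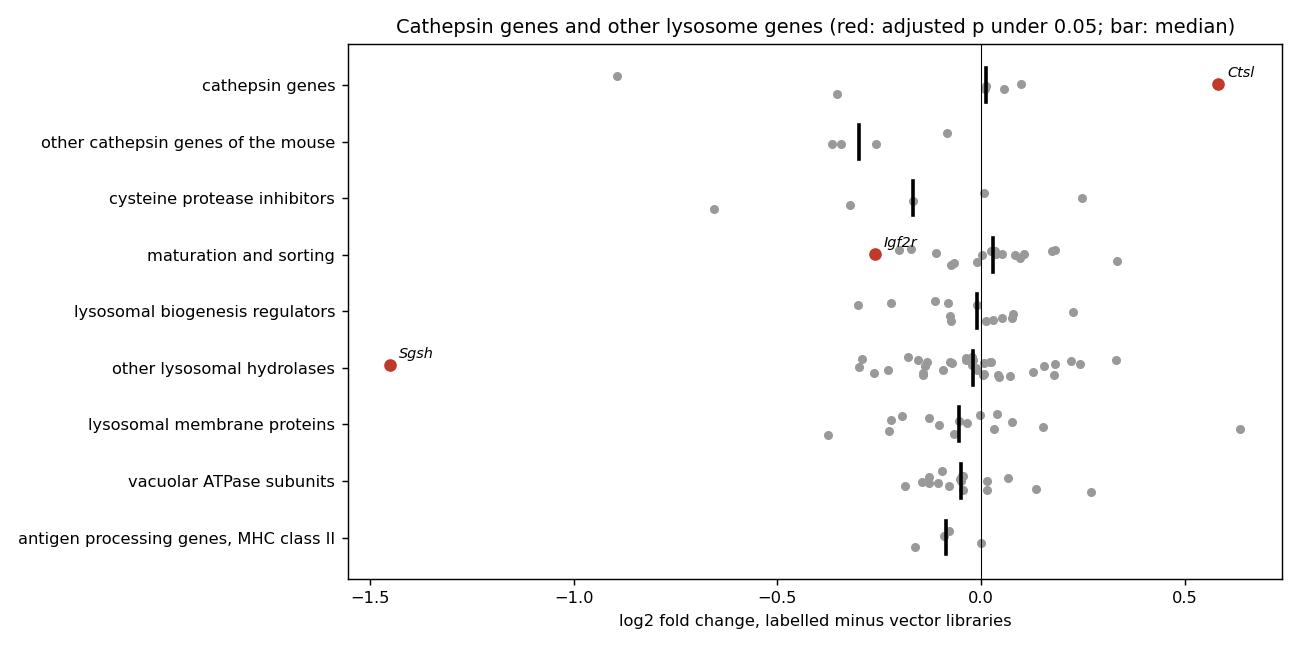
Log2 fold change of each tested gene in the cathepsin list and 8 lists of other lysosome genes, labelled minus vector libraries. Each point is a gene, the bar is the median of its list, and red marks an adjusted p under 0.05 by edgeR. The red points are Ctsl at 0.58, Igf2r at -0.26 and Sgsh at -1.45.

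In bulk RNA, fewer cells of a type and less RNA per cell cannot be told apart, so markers of other cells were measured beside Ctsl. The 15 macrophage markers summed to 45.4 to 50.6 CPM in the labelled and 37.7 to 37.8 CPM in the vector libraries. Cd14, the lipopolysaccharide co-receptor, was the marker that rose, at 24.4 against 14.4 mean CPM, and Cd68, also a lysosomal membrane protein, stood at 3.83 against 2.47 mean CPM without passing (edgeR, adjusted p = 0.0904). The other 13 summed to 19.4 to 20.5 CPM against 20.3 to 22.0 CPM. Most of that sum was Lyz2, at 15.3 against 15.4 mean CPM. Aif1 stood at 1.80 against 2.02, Csf1r at 1.04 against 1.43 and Mpeg1 at 0.843 against 1.34 mean CPM. Tyrobp had 0 counts in all libraries, and Ptprc, Adgre1 and C1qa were each below 0.5 CPM. Of 11 Sertoli cell markers, Wt1, Fshr and Cldn11 had 0 counts, 0 of 6 tested passed edgeR or DESeq2, with 0 at an unadjusted p under 0.05, and the sum was 862 to 925 CPM in the labelled and 837 to 853 CPM in the vector libraries. Rhox5 made up most of the Sertoli sum, at 594 against 533 mean CPM. Tjp1 stood at 232 against 240 and Sox9 at 59.8 against 62.2 mean CPM. Gata4 was lower, at 4.94 against 6.29 mean CPM, whereas Inha was higher, at 5.22 against 4.52 mean CPM. The 8 osteoclast markers summed to 25.5 to 29.7 against 24.2 to 25.8 CPM, nearly all of it Nfatc1. The 8 Leydig cell markers summed to 2.47 to 3.06 against 2.43 to 2.88 CPM, with Cyp11a1 and Cyp17a1 at 0. The 11 peritubular and fibroblast markers summed to 17862 to 18638 against 21095 to 22450 CPM, where Col1a2 fell and Pdgfra rose. Nearly all of that sum was Col1a2, at 13175 against 16173 mean CPM, and Col1a1, at 4511 against 5165 mean CPM. Lum had 0 counts, and Dcn, Myh11, Tagln and Cnn1 had 20, 17, 18 and 21 counts over the 6 libraries together. The part of these shifts in the rise of Ctsl was not tested.

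The genes whose pattern over the 6 libraries was most like that of Ctsl were Fas, Tubb2a, Bcl3, Casp4 and Tsc22d1, with Pearson r of 0.997 to 1.00 among 13267 genes compared. Such values describe only 6 libraries, which share the difference between the groups. The death receptor gene Fas rose by 2.32 ± 0.16 and the NF-kappaB cofactor gene Bcl3 by 2.49 ± 0.18 as log2 fold change (SE), and the inflammatory caspase gene Casp4 also rose (edgeR, adjusted p = 0.00100). Tsc22d1, encoding a leucine zipper protein, rose by 1.18 ± 0.10 and the tubulin gene Tubb2a by 0.31 ± 0.05 (log2, SE). In size the change of Ctsl lay between those of Tubb2a and Tsc22d1.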

How the data were processed

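Whole-number counts and FPKM per gene and library come from a single table of 57180 rows that the authors deposited. HISAT2, SAMtools 1.3.1 and StringTie are named in the submitters' processing notes, with a human build (GRCh38) although identifiers are those of mouse Ensembl genes. The sources used here name neither a counting tool, nor its use of strand, nor the build of the coordinates. Libraries were matched to groups by title.

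Counts were fitted with edgeR 4.0.16 (quasi-likelihood F test, TMM, default filterByExpr, group as the only term) in R 4.3.3 over all 14605 genes that passed the filter, with Benjamini-Hochberg adjustment at 0.05. CPM were scaled by TMM factors. Levels per length and the limit set by a count of 0 used the total counts of each library without these factors. Alternatives used DESeq2 1.42.0, limma 3.58.1 (voom, or log2 of the deposited FPKM with a pseudocount of 1), other scalings and filters, a replicate block and each library left out. The code was tested on simulated counts. Lengths came from GENCODE M21, matched by identifier.

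Each replicate pair differed beyond sampling noise, since chi-square divided by its degrees of freedom was 10.6 to 16.7.

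The members and lists were chosen with earlier results of these data known. Named genes were all 10 members, up to 3 called genes per direction of each lysosome list, 6 fixed genes, Snhg1 and the 5 genes most correlated with Ctsl (mean of at least 20 counts, prior count of 2). Ctso, Cd68, Gm49369, Tfe3, the lysosome genes of the closing section and the markers were named after their values were seen.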

Additional observations from a re-analysis of the deposited data

How the results depend on the processing

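The call of Ctsl held in all 15 alternatives, and no other cathepsin gene passed in any. DESeq2 gave no adjusted p for Ctsk and Ctss, and the filter of 1 CPM left both out. With 1 library left out, the log2 fold change ran from -0.061 to 0.080 for Ctsa, -0.062 to 0.11 for Ctsb, -0.018 to 0.041 for Ctsd, -0.75 to 0.13 for Ctsk and -1.14 to -0.69 for Ctss. By limma-voom Ctsk was at -0.70, from -0.35. With GC and length trends of each library removed, an alternative chosen after the data were seen, Ctsa was at -0.031, Ctsd at -0.060 and Ctsz at 0.00058 (from 0.10). Against 350 changed genes, DESeq2 called 691, and leaving out 1 library gave 123 (without vector control replicate 1) up to 807 (without SNHG1 overexpression replicate 1). Against 2 changed genes in the lysosome lists, no filter left 1, and with 1 library left out there were 0 to 6. The ratio of Ctsb to Ctsl per length was 3.34, but 4.21 with the length implied by the FPKM and 4.05 with the principal transcript length. The causes were not tested.

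With the replicate block, 163 genes and 1 lysosome gene were called, and Ctsl kept its call at 0.58 (edgeR, adjusted p = 0.0157). Same-numbered libraries had correlations of deviations of 0.042, -0.18 and -0.068, and 1 of 6 libraries correlated best with its own number. With 3 libraries per group, correlations this weak cannot decide whether the numbers pair the libraries, and the labels do not say. Genes below about 0.5 CPM, which here are Ctsc, Ctsf and Ctsh, are beyond the depth of these libraries.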

Other observations

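Some lysosome genes outside the calls of the report were called in other settings. Tcirg1, encoding a membrane subunit of the vacuolar ATPase, stood at 146, 145 and 135 CPM in the labelled and 119, 113 and 120 CPM in the vector libraries, which did not overlap. Its log2 fold change was 0.27 ± 0.06 (SE), with an adjusted p of 0.0556 by edgeR and 0.00826 by DESeq2 (n = 3 per group), and edgeR with total counts alone gave 0.0496. Cd68 was called higher by limma on log2(FPKM + 1), at 0.38 ± 0.07 on that scale (SE, adjusted p = 0.0461). Lipa, Idua, Fnip1 and Tmem106b were called only without SNHG1 overexpression replicate 1, each lower in the labelled libraries, with log2 fold changes of -0.59 to -0.25 there. Rptor, a subunit of the mTORC1 kinase complex, was called only with GC and length trends removed, at -0.23 ± 0.05 (log2, SE; edgeR, adjusted p = 0.0451). SNHG1 overexpression replicate 1 also held the highest CPM of Ctsa, Ctsb, Ctsd and Ctsl.

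Deposited FPKM values imply gene lengths longer than the annotated exons for several cathepsin genes. For Ctsa the implied length was 9533 bases against 4715, for Ctsl 8573 against 6489 and for Ctsd 3606 against 2351. For Ctsz (1441 bases) and Ctsk (1512 bases) both lengths were equal.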
